A study of Mus musculus with 9 samples.

Results

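Peroxisome enzymes and peroxins were followed in the kidney cortex of mice after a 16 h fast. The set holds 46 genes, listed by name: 33 enzymes, carriers and membrane proteins and 13 peroxins, the proteins that build the organelle and import its contents. All 46 were found among the 23420 genes of the deposited table, 45 by their symbol and Pex11g under its older symbol Pex11c. RNA sequencing compared 4 libraries of kidney cortex from mice that had no food for 16 h (fasted) with 5 libraries from mice with free access to chow (fed). All mice were C57/BL6 males of unstated age, with no genetic change or drug named. The labels do not say in words that each library came from a different mouse. The p-values therefore judge each difference against the spread between libraries within a group, which may not be the spread between mice.

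Peroxisomes are small membrane-bound organelles that shorten very long chain, branched and dicarboxylic fatty acids, and they carry oxidases that make hydrogen peroxide together with catalase that removes it. Fatty acids are activated, carried across the membrane by ABC transporters, and shortened in turns of oxidation, hydration, dehydrogenation and thiolysis. The cells of the renal proximal tubule are rich in peroxisomes. Matrix proteins are made in the cytosol and imported whole by peroxins, and in rodents several genes of this pathway are known targets of the nuclear receptor PPAR alpha, which binds as a pair with RXR to direct repeats of AGGTCA.

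Depth was 18902645 to 27186745 reads in the fasted libraries and 19638174 to 32469467 in the fed libraries, and the values below are normalized counts, that is reads divided by 1 size factor per library. The ribosomal RNA entry Rn45s took 2.36% of the reads in fasted 1 and 5.53% in fed 3, more than in any other library of their group. Proximal tubule markers were abundant. The 8 listed were Lrp2, Cubn, Slc34a1, Slc5a2, Slc22a6, Slc13a3, Aqp1 and Miox. They summed to 401489 to 470321 normalized counts in fasted libraries and to 458137 to 637186 in fed libraries. Fed 5 was the lowest of the fed libraries and fed 4 the highest. Lrp2 and Slc34a1 had the highest counts of the 8 in every library and weigh most in these sums. Of the 8 markers, Slc13a3 was higher in fasted kidneys (log2 change 0.41) and Slc34a1 was lower (-0.58). The median log2 change of the 8 was -0.31. The 7 hepatocyte markers summed to 8099.5 to 14906 in fasted and 2815.6 to 17015 in fed libraries, with 2 higher in fasted kidneys. The 7 adipocyte markers summed to 994 to 1578 in fasted libraries and 1036 to 2445 in fed libraries, with 2 of the 4 that passed the filter higher in fasted kidneys. The 3 fibroblast markers (Pdgfra, Dcn and Col1a1) summed to 4018 to 4653 in fasted libraries and 2536 to 3633 in fed libraries, without overlap, with 2 higher and 1 lower in fasted kidneys. The 4 intercalated cell markers summed to 4436 to 4928 in fasted libraries and 4729 to 5799 in fed libraries, with 2 lower in fasted kidneys. In the remaining lists, 1 of 3 distal convoluted tubule markers was higher, 1 of 4 endothelial markers was higher and 1 lower, and no marker of proximal tubule S1 or S3, thick ascending limb, collecting duct, podocyte or macrophage passed. No listed marker was at 0 in every library, and the part of cell makeup in the results was not tested. In whole cortex, fewer cells of a type and less RNA per cell cannot be told apart.

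The 3 largest increases were in Ehhadh, Acaa1b and Hacl1, enzymes of fatty acid oxidation. The genes that were lower were 3 oxidases and Pecr. At a Benjamini-Hochberg adjusted p under 0.05 (limma with a trend, over 15098 genes), 20 of the 46 genes were higher in fasted kidneys, 4 were lower and 22 did not pass. Without fed 5 the counts were 19 higher and 7 lower, and over all genes 926 were higher and 1033 lower of 15102 tested. With all libraries kept, 863 of all genes tested were higher (5.72%) and 793 lower (5.25%), 11% in either direction. The median log2 change of the 46 genes was 0.29, beside 0.00089 over all genes tested, and 9 of them were at least 2-fold higher. The 9 included Hsdl2, Pex11a, Pxmp4 and Abcd3, which are not listed here as oxidation enzymes. All 4 fasted libraries were above all 5 fed libraries for 21 of the 46 genes, beside 7.62% of all genes, and all were below for 3, beside 6.64%.

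**Figure D1:**
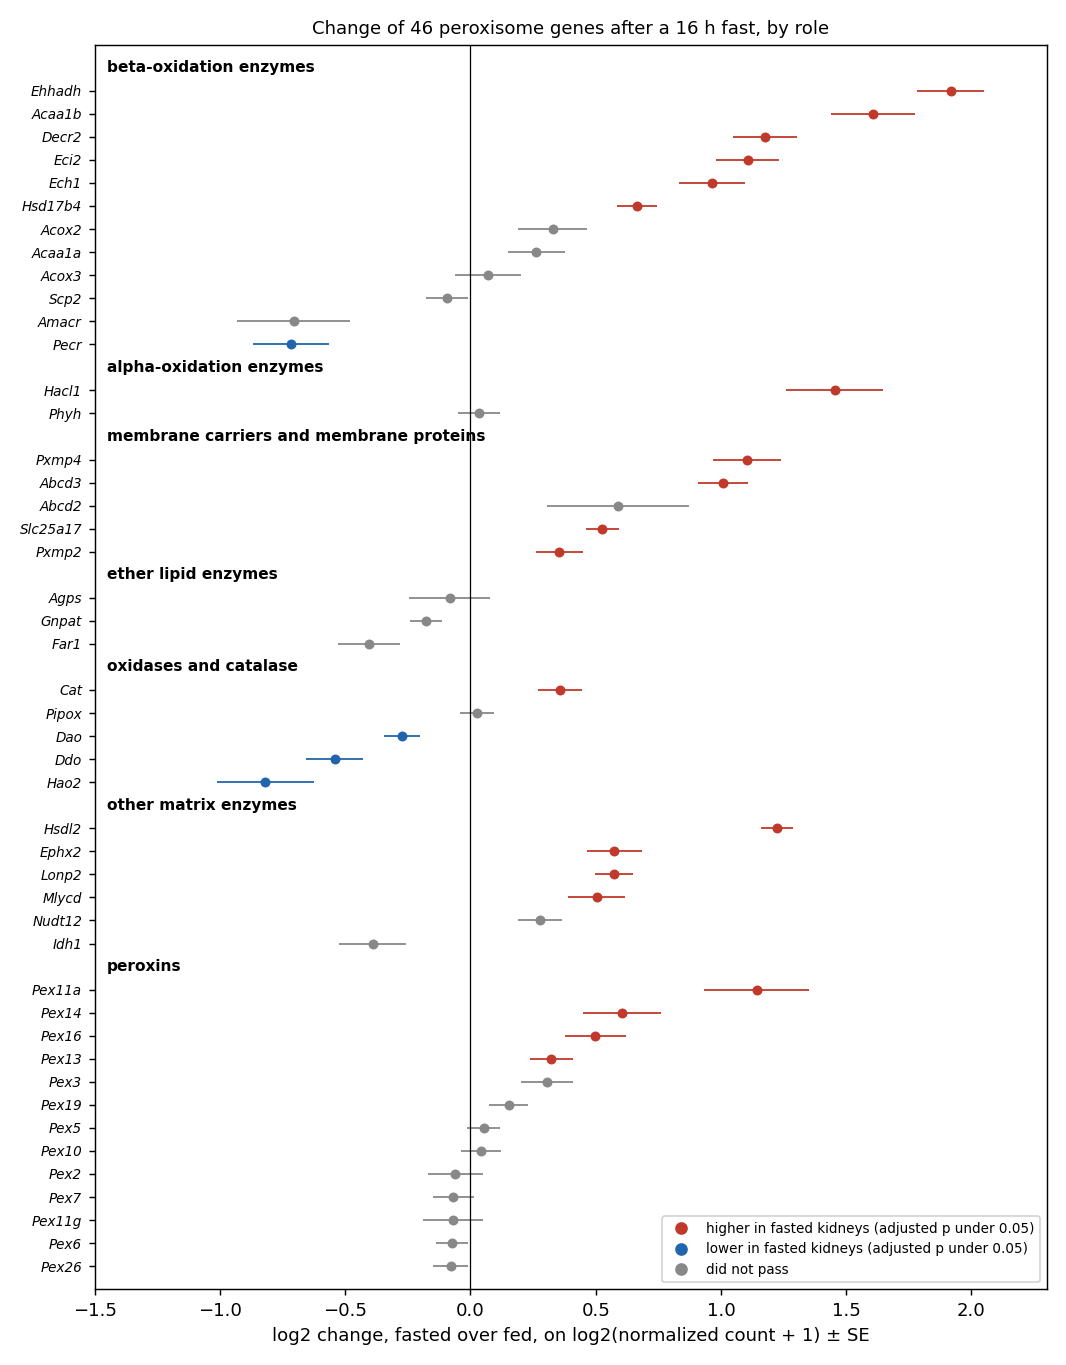
Log2 change in fasted over fed kidneys (horizontal axis, on log2(normalized count + 1), bars show SE) of the 46 genes grouped by role, coloured by whether the gene was higher, lower or did not pass. Ehhadh at 1.92, Acaa1b at 1.61 and Hacl1 at 1.45 lie farthest to the right, and Hao2 at -0.82 lies farthest to the left.

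Upstream sequences were read for the gene with the largest change, for a pair of neighbouring thiolase genes of which 1 passed the test, and for 2 genes with a close match to the repeat. RefSeq windows (GRCm38.p6) of 250 bases before and 50 after the start were found for 38 of the 46 genes. Hsd17b4, Amacr, Abcd2, Pxmp2, Ephx2, Nudt12, Pex2 and Pex19 had none. The motif searched, on both strands, was AGGTCA, then any 1 base, then AGGTCA again (the direct repeat named DR1). With up to 2 mismatches the motif lay in 2 of the 38 windows (5.26%), beside 1190 of 27025 gene windows (4.4%). It lay in 1 of the 17 windows of genes that were higher in fasted kidneys (5.88%), in 1 of the 17 of genes that did not pass and in 0 of the 4 of genes that were lower. With 1 mismatch or none it lay in 0 of the 38, beside 174 windows (0.644%) at 1 mismatch. A match is a description of these letters and not a binding site, and no match says only that they are absent from the window. The 2 matches are shown with 8 bases on either side, 5′ to 3′ on the gene's strand, with the match in capitals. In Cat (chr2:103485337-103485365, minus strand) the match runs from -204 to -192, counted from the RefSeq start. In Acox2 (chr14:8258810-8258838, minus strand) it runs from base 10 to base 22 after it.
Cat: actctcagAGGTCAGAGAACAccagcagg
Acox2: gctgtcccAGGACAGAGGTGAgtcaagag

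The 250 bases before the RefSeq start follow for Ehhadh (chr16:21787835-21788084, minus strand), Acaa1b (chr9:119157094-119157343, minus strand) and Acaa1a (chr9:119341044-119341293, plus strand). Capitals mark the closest match to the motif on either strand, which has 4 mismatches in Ehhadh, 4 in Acaa1b and 5 in Acaa1a. Acaa1b has 41.6% G and C in this window and Acaa1a has 53.6%, and the longest run of letters that their windows share is 8 bases.
Ehhadh: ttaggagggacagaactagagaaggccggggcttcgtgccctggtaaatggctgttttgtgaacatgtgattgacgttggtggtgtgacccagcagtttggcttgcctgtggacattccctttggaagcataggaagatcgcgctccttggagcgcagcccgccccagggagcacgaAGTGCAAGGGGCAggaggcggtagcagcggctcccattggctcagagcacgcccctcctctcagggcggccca
Acaa1b: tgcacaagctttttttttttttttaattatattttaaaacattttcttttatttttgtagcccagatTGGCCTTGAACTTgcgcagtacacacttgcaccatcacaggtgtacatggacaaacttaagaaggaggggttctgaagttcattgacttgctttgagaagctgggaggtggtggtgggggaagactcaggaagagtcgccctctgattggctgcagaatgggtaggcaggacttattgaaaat
Acaa1a: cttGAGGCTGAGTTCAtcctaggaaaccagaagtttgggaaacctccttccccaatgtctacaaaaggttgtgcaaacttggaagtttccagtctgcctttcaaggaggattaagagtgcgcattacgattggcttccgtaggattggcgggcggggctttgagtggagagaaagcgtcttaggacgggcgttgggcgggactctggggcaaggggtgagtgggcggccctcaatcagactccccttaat

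Among the 12 genes listed as beta-oxidation enzymes, 6 were higher in fasted kidneys and 1, the reductase Pecr, was lower. The median log2 change of the 12 was 0.50, and over all genes tested 5.72% were higher and 5.25% lower. Ehhadh encodes the multifunctional protein that hydrates and dehydrogenates straight and dicarboxylic chains, and lies at chr16:21761287-21787807 (GENCODE M21, GRCm38, minus strand). It stood at 68907, 80271, 69421 and 87896 normalized counts in the fasted libraries, against 19683, 18663, 16933, 20097 and 26814 in the fed libraries. The lowest fasted library was above the highest fed library. Its mean was 76624 ± 9161 in fasted and 20438 ± 3768 in fed kidneys (SD, n = 4 and 5), 3.75 times as high, with a log2 change of 1.92 (SE 0.13, adjusted p = 3.04e-05), and leaving out any 1 library kept it between 1.85 and 2.02. Per kilobase of exon, Ehhadh averaged 25704 normalized counts in fasted kidneys, the highest of the 46, and 6856 in fed kidneys, where Cat was the highest at 11527.

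Thiolases cut the shortened chain. Acaa1b (chr9:119148023-119157093, minus strand) had 14005, 18289, 14881 and 18416 normalized counts in the fasted libraries, against 4269, 4938, 4366, 6262 and 7558 in the fed libraries, with no overlap. Its log2 change was 1.61 (SE 0.17, adjusted p = 0.000308). The neighbouring Acaa1a (chr9:119339676-119350299, plus strand), named because it is the paralog of Acaa1b and after its values were seen, encodes a thiolase of the same type. Its fasted libraries held 2127, 2920.5, 2269 and 2929.8 normalized counts, against 1975, 2169.8, 1923, 2491 and 2052 in the fed libraries. The groups overlapped, and the change of 0.26 (SE 0.11, adjusted p = 0.163) did not pass. The genes lie 182582 bases apart, and over 1471 aligned bases of their transcripts 95.7% were identical. Of the 50-base stretches in Acaa1b exons, 30.5% also occurred in Acaa1a, so reads in those stretches may have been split or dropped by the authors' counting. On the opposite strand, Dlec1 exons cover 11.4% of Acaa1b exon bases and Myd88 exons 6.57% of those of Acaa1a. This may affect their counts, as the strand of counting is not given. The difference between the 2 changes was not tested.

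The auxiliary enzymes that prepare unsaturated chains were higher in fasted kidneys as well. Decr2, a 2,4-dienoyl-CoA reductase, had 2920.4, 4346, 3674 and 4031 normalized counts in the fasted libraries, against 1489, 1646, 1371, 1970.4 and 1773 in the fed libraries, with a log2 change of 1.18 (SE 0.13, adjusted p = 0.000414). Eci2, an enoyl-CoA isomerase, had 4118, 5383, 4583 and 4228 in the fasted libraries, against 1898, 2187, 1696, 2272 and 2637 in the fed libraries, with a log2 change of 1.11 (SE 0.12, adjusted p = 0.000452). In both genes every fasted library was above every fed one. Ech1, a dienoyl-CoA isomerase, averaged 16783 ± 1316 in fasted and 8700.1 ± 1502 in fed kidneys (SD), with a log2 change of 0.96 (adjusted p = 0.00132). Hsd17b4, the multifunctional protein for branched chains, averaged 11879.5 ± 1137 in fasted and 7476 ± 470.2 in fed kidneys (SD), with a log2 change of 0.67 (adjusted p = 0.000604).

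Pecr, a trans-2-enoyl-CoA reductase (chr1:72259167-72284314), was the gene of this list that was lower. It reduces the enoyl bond that the oxidation step makes, so it is not itself a step of beta-oxidation. It had 3398, 4148, 4029 and 2889 normalized counts in the fasted libraries, against 6148, 5706, 7339, 6437 and 4257 in the fed libraries. The groups did not overlap, though fed 5 stood close to the highest fasted library, fasted 2. The log2 change was -0.72 (SE 0.15, adjusted p = 0.0133). Of the exon bases of Pecr, 11.5% lie opposite D230017M19Rik, which its counts may include. Amacr, the racemase for branched chains and bile acid intermediates, is given per library after its values were seen. It had 3248, 2847, 4552 and 2797 in the fasted libraries, against 6239, 5659, 6019.6, 6924 and 3043 in the fed libraries. Fed 5 lay among the fasted libraries and the other fed libraries above them all. The change of -0.71 (SE 0.22, adjusted p = 0.0691) did not pass, and without fed 5 it was -0.91 (adjusted p = 0.00313), and without fasted 3 -0.86 (adjusted p = 0.0476). Acox2 and Acox3, oxidases for branched chains, and Scp2, a thiolase and carrier of branched and sterol chains, had changes of 0.33, 0.07 and -0.09 that did not pass. Of the 50-base stretches of Scp2, 29.7% also occur in Scp2-ps2, so its reads too may have been split or dropped.

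Alpha-oxidation takes 1 carbon from phytanic acid, and its 2 enzymes differed in value. Hacl1, the 2-hydroxyacyl-CoA lyase, had 4134, 5928, 5177 and 6808 normalized counts in the fasted libraries, against 1693, 2297, 1365, 2099 and 2711 in the fed libraries, without overlap. Its log2 change was 1.45 (SE 0.19, adjusted p = 0.00114), and 28.4% of its 50-base stretches also occur in other genes, mainly Gm49387. Gm49387 is annotated over the same place on the same strand, where it covers 31.1% of Hacl1 exon bases. It is not among the genes of the deposited values. Phyh, the phytanoyl-CoA hydroxylase that acts before it, had 12572, 14775, 12804 and 12657 in the fasted libraries, against 12121, 14031, 13109, 13839 and 11444 in the fed libraries, and the groups overlapped. Its log2 change was 0.03 (SE 0.08, adjusted p = 0.836).

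Among the 5 membrane carriers and membrane proteins, 4 were higher in fasted kidneys and 0 lower, beside 5.72% and 5.25% of all genes tested. Their median log2 change was 0.59. Abcd3, the transporter of branched and dicarboxylic acyl-CoA, had 20473, 28056, 20999 and 21791 normalized counts in the fasted libraries, against 11699, 11291, 10774, 12303 and 10323 in the fed libraries. The change was 1.01 (SE 0.10, adjusted p = 0.000219). Abcd3 had no fasted library near a fed one, and fasted 2 stood above the other fasted libraries. Pxmp4, a membrane protein of the organelle, had 3906, 4856, 3903 and 4020.0 in the fasted libraries, against 1989, 2169.8, 1367, 2049 and 2220.0 in the fed libraries. Its log2 change was 1.10 (SE 0.13, adjusted p = 0.000697). Slc25a17, a carrier of CoA and related cofactors, had 3449.6, 3572, 3324 and 3624 in the fasted libraries, against 2234, 2465, 2259, 2605 and 2584 in the fed libraries, and changed by 0.53 (SE 0.07, adjusted p = 0.000803). In these 3 genes all fasted libraries were above all fed libraries. Pxmp2, a channel protein, had 1234, 1266, 1424 and 1300.0 in the fasted libraries, against 893, 1047, 921, 1234 and 1037 in the fed libraries, so that fasted 1 and fed 4 stood side by side. Its change of 0.35 (SE 0.09, adjusted p = 0.0358) lost the call in 7 of the 9 fits that left out 1 library, all but those without fed 4 or fed 5 (adjusted p = 0.0593 to 0.101). Of the exon bases of Pxmp2, 10.8% lie opposite Gm15788, which its counts may include. Abcd2, a transporter of very long chain acyl-CoA that is also given after its values were seen, was the least abundant of the 46 and did not pass, with 13.02, 20.57, 21.10 and 32.01 normalized counts in the fasted libraries and 11.16, 12.89, 10.52, 15.03 and 18.90 in the fed libraries, where the groups overlapped.

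Of the 6 other matrix enzymes, 4 were higher and 0 lower, beside 5.72% and 5.25% of all genes tested. Their median log2 change was 0.54. Hsdl2 (chr4:59581563-59618689), a dehydrogenase-like protein with a lipid-binding domain, had 3688, 4167, 3739 and 3919 normalized counts in the fasted libraries, against 1707, 1547, 1598, 1648 and 1789 in the fed libraries. Its values varied little within a group and did not overlap between groups. Its adjusted p of 9.42e-06 was the smallest of the 46, at a log2 change of 1.23 (SE 0.06). Lonp2, the protease that removes unassembled matrix proteins, had 5513, 6508, 5911 and 5954 in the fasted libraries, against 3820.4, 4224, 3614, 4467 and 3949 in the fed libraries, and changed by 0.57 (SE 0.08, adjusted p = 0.00109). Ephx2, the soluble epoxide hydrolase, had 16513, 23904, 18483 and 16529.8 in the fasted libraries, against 12564, 13312, 12021, 13227 and 11546 in the fed libraries, and changed by 0.57 (SE 0.11, adjusted p = 0.00819). Mlycd, malonyl-CoA decarboxylase, had 1901, 2680.1, 1921 and 1838 in the fasted libraries, against 1413, 1531, 1310.2, 1673 and 1363 in the fed libraries, with a change of 0.50 (SE 0.12, adjusted p = 0.0191). All 4 had every fasted library above every fed library, and in Ephx2, Lonp2, Mlycd and Hsdl2 alike fasted 2 was the highest. Idh1, which makes NADPH from isocitrate, and Nudt12, an NADH diphosphatase, had changes of -0.39 (adjusted p = 0.0837) and 0.28 (adjusted p = 0.0676). Idh1 passed without fed 5 (adjusted p = 0.0171) and Nudt12 without fed 4 (adjusted p = 0.0282).

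The oxidases and catalase went in both directions: 3 of 5 were lower in fasted kidneys and 1 was higher. Of all genes tested, 5.25% were lower and 5.72% higher. The median log2 change of the 5 was -0.27. Hao2, a 2-hydroxy acid oxidase (chr3:98874521-98893239), had 6529, 3635, 6762 and 6721 normalized counts in the fasted libraries, against 10267, 9700.0, 8798, 13735 and 8755 in the fed libraries. The groups did not overlap, and fasted 2 stood well below the other fasted libraries. The log2 change was -0.82 (SE 0.19, adjusted p = 0.0212). Ddo, D-aspartate oxidase, had 1137, 793, 1136 and 935 in the fasted libraries, against 1416, 1588, 1572, 1362 and 1288 in the fed libraries, with no overlap and a change of -0.54 (SE 0.11, adjusted p = 0.0124). Dao, D-amino acid oxidase, had 6509, 7337, 6947 and 6432 in the fasted libraries, against 8476, 8349, 8474, 8579 and 7247 in the fed libraries. Its groups overlapped, because fasted 2 was above fed 5, and its change of -0.27 (SE 0.07, adjusted p = 0.0331) lost the call in 7 of the 9 fits that left out 1 library, all but those without fasted 2 or fed 5 (adjusted p = 0.0503 to 0.11).

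Cat, the catalase that removes hydrogen peroxide, was higher. It had 38564, 35952, 37166 and 42484 normalized counts in the fasted libraries, against 28860.1, 30175, 27313, 33821 and 30431 in the fed libraries, with all fasted above all fed. The log2 change was 0.36 (SE 0.09, adjusted p = 0.0252), but Cat did not pass without fasted 1, fasted 3, fasted 4, fed 1 or fed 2 (adjusted p = 0.0533 to 0.0875). Pipox, a sarcosine and pipecolate oxidase, had a change of 0.03 (adjusted p = 0.832).

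None of the 3 ether lipid enzymes passed, and all 3 had values below 0, with a median of -0.18. Gnpat, which starts the pathway on dihydroxyacetone phosphate, had 2369.8, 2532, 2342 and 2126 normalized counts in the fasted libraries, against 2676, 2666, 2741, 2689 and 2452 in the fed libraries, with a change of -0.18 (SE 0.06, adjusted p = 0.105). Agps, which swaps the acyl for an alkyl chain, had 10254, 13862, 12242 and 8584 in the fasted libraries, against 13462, 12410.1, 10783, 14016 and 8708 in the fed libraries, with a change of -0.08 (SE 0.16, adjusted p = 0.787). Far1, which supplies the fatty alcohol, had 5970.1, 5853, 6901 and 5035 in the fasted libraries, against 9145, 7564, 7905, 8856 and 6027 in the fed libraries. The change of Far1 was -0.41 (SE 0.13, adjusted p = 0.0623), and -0.50 (adjusted p = 0.0114) without fed 5. Fed 5 was the lowest fed library in all 3 genes and overlapped the fasted libraries.

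Among the 13 peroxins, 4 were higher in fasted kidneys (30.77%) and 0 lower, beside 5.72% and 5.25% of all genes tested. Their median log2 change was 0.05, beside 0.35 for the other 33 genes. The 33 genes included 16 that were higher (48.48%). The shares of the 13 and the 33 were not compared by a test. Pex11a (chr7:79735957-79743131), which elongates and divides the organelle, had 575, 1312, 668 and 615 normalized counts in the fasted libraries, against 316, 298, 376, 375 and 328 in the fed libraries. Fasted 2 was far above the others, and the other 3 fasted libraries were still above every fed one. The log2 change was 1.14 (SE 0.21, adjusted p = 0.00667) with fasted 2 and 0.87 without it. Pex14, part of the docking complex for import receptors, had 1361, 2514, 1601 and 1565 in the fasted libraries, against 1056, 1254, 960.3, 1227 and 1155 in the fed libraries, and changed by 0.60 (SE 0.16, adjusted p = 0.0313). Its change was 0.42 without fasted 2, and 28.3% of its exon bases lie opposite Gm17029, which the counts may include as the strand of counting is not given. Pex14 lost its call without fasted 3, fasted 4, fed 1 or fed 3 (adjusted p = 0.0572 to 0.0718).

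Pex16, which brings membrane proteins into the membrane, had 1005, 1518, 1147 and 1063 normalized counts in the fasted libraries, against 808, 888, 704, 932 and 818 in the fed libraries, and changed by 0.50 (SE 0.12, adjusted p = 0.0248). Pex13, the partner of Pex14 in docking, had 1533, 1839, 1674 and 1673 in the fasted libraries, against 1391, 1378, 1135, 1509 and 1314 in the fed libraries, and changed by 0.32 (SE 0.09, adjusted p = 0.0361). Both had every fasted library above every fed one, but the call of Pex16 was lost without fasted 3 or fed 1 (adjusted p = 0.0572 and 0.0573). That of Pex13 was lost without fasted 2, fasted 3, fasted 4, fed 1, fed 2 or fed 5 (adjusted p = 0.0522 to 0.0957). Pex3, a membrane import peroxin, had a change of 0.30 (adjusted p = 0.086, and 0.0407 without fed 4) and no overlap. The remaining 8 peroxins did not pass and lay between -0.08 and 0.15: the import receptors Pex5 and Pex7, the ring ligases Pex2 and Pex10, Pex6 and its anchor Pex26, Pex19, which carries membrane proteins, and Pex11g. Of the exon bases of Pex11g, 41.1% lie opposite Gm44775, which its counts may include.

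**Figure D2:**
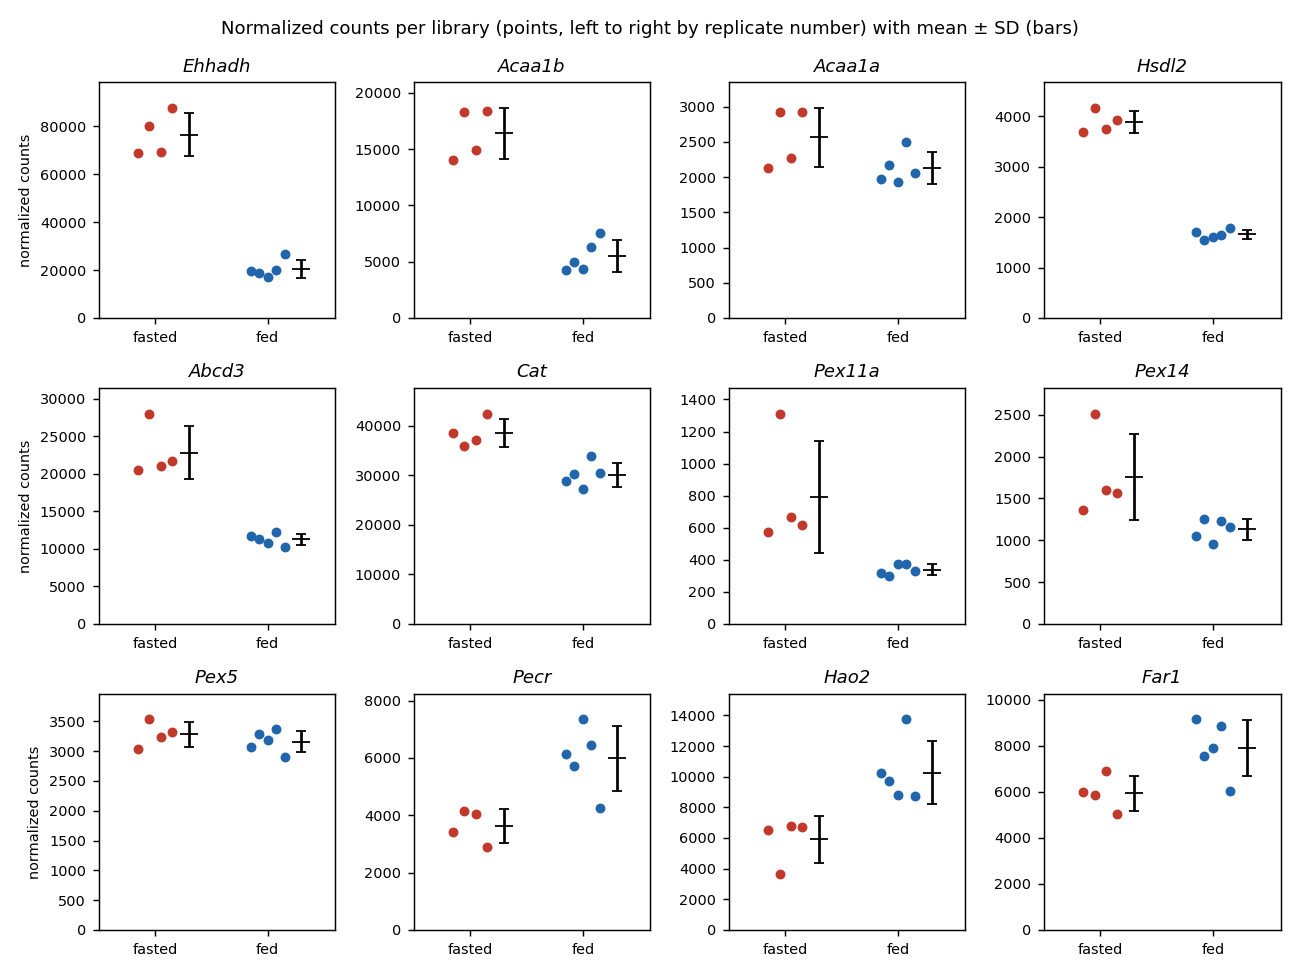
Normalized counts in each library (points) with mean and SD (bars) for 12 of the 46 genes, fasted at the left and fed at the right of each panel. Ehhadh, Acaa1b and Hsdl2 show every fasted point above every fed point, Pecr and Hao2 show every fasted point below, and the points of Acaa1a and Pex5 overlap.

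Individual libraries carried part of the pattern. Fasted 2 was the highest fasted library for 25 of the 46 genes (54.35%, beside 30.76% of all genes tested) and fasted 1 the lowest for 25 (beside 24.13%). Fed 4 was the highest fed library for 25 of the 46 (beside 20.58% of all genes) and the lowest for 0. Of the 20 genes that were higher in fasted kidneys, fed 4 was the highest fed library for 10 and fed 5 for 7, among them Ehhadh, Acaa1b, Eci2 and Hacl1 (fed 5 was highest for 20.43% of all genes). Fed 3 was the lowest fed library for 12 of these 20, beside 27.74% of all genes. Fed 5 was the lowest for 4 of the 4 genes that were lower and for 13 of the 22 that did not pass, beside 22.6% of all genes.

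**Figure D3:**
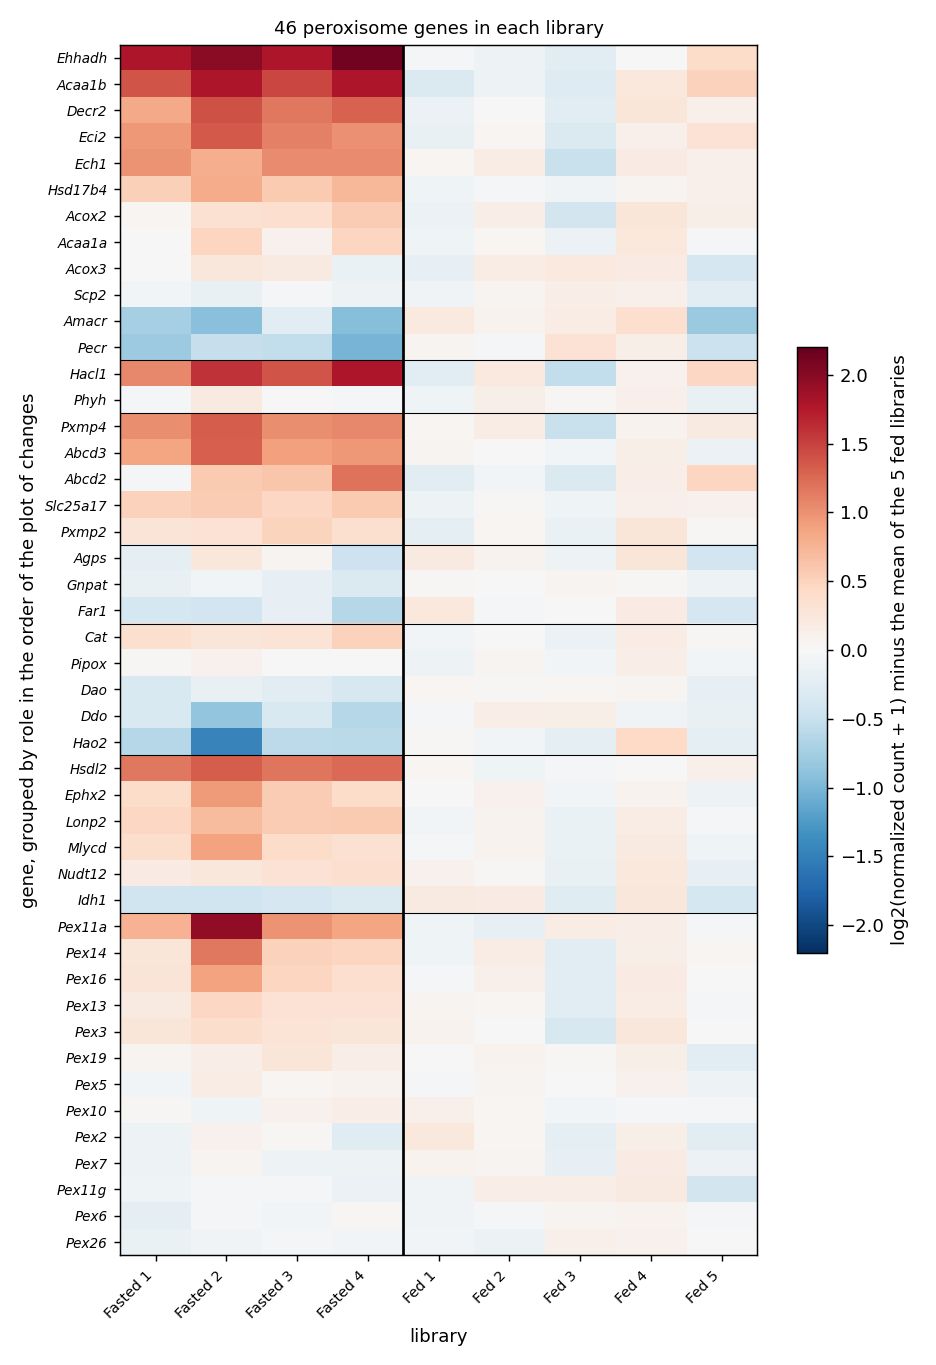
Deviation of log2(normalized count + 1) from the mean of the 5 fed libraries for each of the 46 genes (rows, grouped by role) in each library (columns, fasted at the left and fed at the right of the line). The 20 genes that were higher form red bands across the 4 fasted columns, which follows from how they were chosen. Fasted 2 is the highest fasted library for 13 of these 20.

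Over the 20 higher genes, the median deviation from the fed mean was 0.65, 1.05, 0.74 and 0.80 in the fasted libraries, and -0.06, 0.04, -0.19, 0.14 and 0.06 in the fed libraries. Over the 4 lower genes it was -0.49, -0.68, -0.44 and -0.61 in the fasted libraries, and 0.03, -0.01, 0.09, 0.10 and -0.19 in the fed libraries. Both sets were chosen by their change in these same libraries, so the direction of these fasted medians follows from that choice. Fed 5 also had the lowest sum of proximal tubule markers of the fed libraries. Without fed 5, 19 genes were higher and 7 lower, and Amacr, Far1 and Idh1 were among the lower ones. Over all genes tested, 926 were then higher and 1033 lower, beside 863 and 793 with fed 5 kept.

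**Figure D4:**
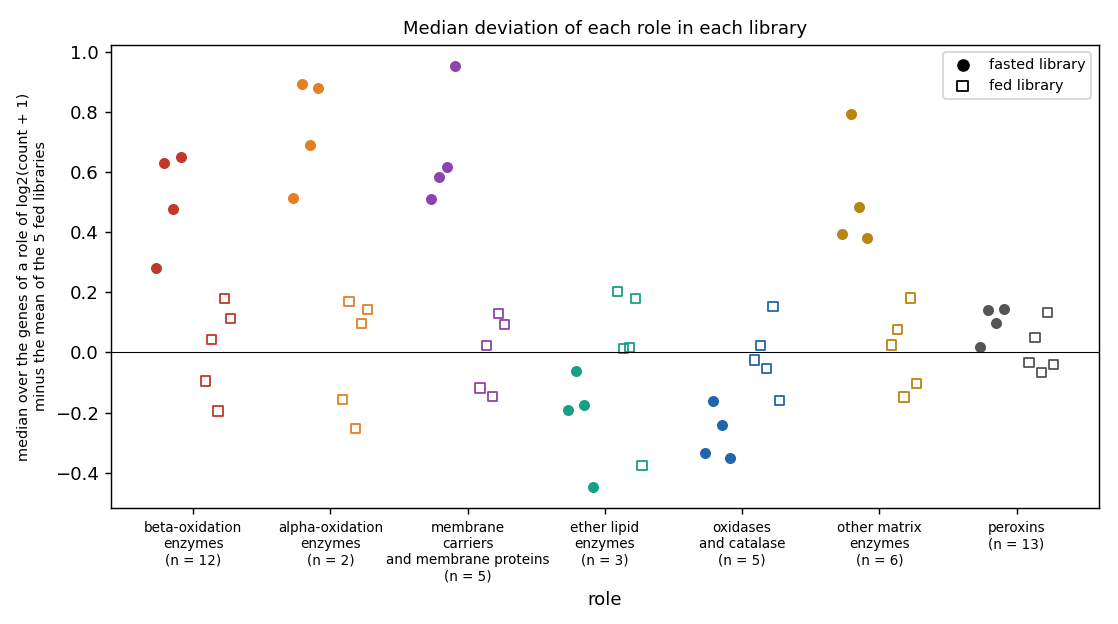
Median over the genes of each role (horizontal axis) of log2(normalized count + 1) minus the mean of the 5 fed libraries (vertical axis), with 1 point per fasted library and 1 square per fed library. The medians of beta-oxidation, alpha-oxidation, membrane and other matrix genes lie above those of the fed libraries in all 4 fasted libraries. The peroxin medians lie between 0.02 and 0.14 in fasted libraries and between -0.07 and 0.13 in fed libraries.

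The same kidneys gave values for other genes of the organelle and for mitochondrial beta-oxidation. Of 35 other peroxisome genes, 9 were higher (25.71%) and 1 lower (2.86%), beside 5.72% and 5.25% of all genes tested. Their median log2 change was 0.07. Mvk, mevalonate kinase of sterol synthesis, fell to 179.7 ± 16.2 normalized counts in fasted kidneys, against 363.6 ± 55.8 in fed kidneys (SD), a log2 change of -1.002 (adjusted p = 0.000914). Crot, the carnitine octanoyltransferase that exports shortened chains, was at 29032 ± 2908 in fasted and 16346 ± 2856 in fed kidneys (SD), with a change of 0.84 (adjusted p = 0.00314). Acot8, a thioesterase, Acad11, an acyl-CoA dehydrogenase, and Xdh, xanthine dehydrogenase, changed by 0.77, 0.60 and 0.75 (adjusted p = 0.00166, 0.00225 and 0.00316). Of 17 mitochondrial beta-oxidation genes, 13 were higher (76.47%) and 0 lower, with a median log2 change of 0.74. These lists were described by counts alone, with no test of one list against another.

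The authors' deposited table gave an adjusted p under 0.05 to 21 of the 46 genes as higher and to 7 as lower in fasted kidneys, beside 8.14% and 7.89% of its genes. All 24 genes called above were among them with the same direction. In the authors' deposited table the other 4 were Amacr (log2 change -0.60, adjusted p = 0.00675), Far1 (-0.38, adjusted p = 0.0165), Idh1 (-0.38, adjusted p = 0.0204) and Nudt12 (0.26, adjusted p = 0.0397). The authors' log2 changes come from their own fit and can differ in size from those above. For Ehhadh the authors' deposited value was 1.75, beside 1.92 above. Annotation terms were given for the authors' own gene list from this same study, so they are no separate support for the counts above. The authors' deposited annotation table listed 40 genes under the keyword peroxisome of 96 in its background. The fold was 6.09 (Benjamini adjusted p = 2.36e-18), and 23 of these genes were among the 46. For peroxisomal membrane the authors' deposited annotation table listed 11 genes of 26, a fold of 6.03 (Benjamini adjusted p = 0.000164). It listed 6 genes of 21 for peroxisome organization, a fold of 4.07 (Benjamini adjusted p = 0.419). For peroxisome biogenesis it listed 4 genes of 12, a fold of 4.87 (Benjamini adjusted p = 0.286).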

How the data were processed

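Per the labels' protocols, TRIzol extracts of about 50 mg of kidney cortex went into TruSeq libraries; the labels name no batch, litter or pairing. The submitters' processing notes name FastQC, TopHat2 2.0.9, HTSeq 0.9.1, DESeq2 3.5 and the builds mm10 and hg19; the gene annotation and the strand of counting are not given in the sources used here. The deposited signal is read counts that the authors divided by 1 size factor per library: all 161194 values above 0 were whole reads within 0.01 reads. Depth per library was 18902645 to 32469467 reads. Chi-square per degree of freedom between libraries of a group was 16.7 to 117, so spread between libraries exceeded counting error. Pairs with fed 3 held the upper end, at 78.9 to 117, and all other pairs were at 16.7 to 45.5. The deposited log2 fold changes, score and p-value columns come from the authors' fit, and the deposited annotation tables give a fold and p-value per term.

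The main test was limma 3.58.1 in R 4.3.3, with a trend and two-sided, of 4 fasted against 5 fed libraries on log2(value + 1). It covered the 15098 genes whose mean reached 10 normalized counts, and genes were called at a Benjamini-Hochberg adjusted p under 0.05. Alternatives on the recovered counts used edgeR 4.0.16, DESeq2 1.42.0, voom, TMM and upper-quartile factors; others changed the pseudocount, filter, threshold and libraries. The fit was tested on simulated data. Members and lists were chosen with earlier results of these data known. Values per library are given for up to 4 genes of each role with the smallest adjusted p, every called lower gene and Cat, and also for Acaa1a, Amacr and Abcd2, chosen after their values were seen; wider lists name up to 6 called genes. Some genes that the rule names are not reported here. Gene positions and exon lengths are from GENCODE M21 (GRCm38) and upstream windows from RefSeq (GRCm38.p6).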

Additional observations from a re-analysis of the deposited data

Results flagged for a closer look

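In 92 groups of libraries (46 genes, fasted and fed), 10 had 1 library farther from the others than the 95% limit of Dixon's test, in 9 genes; chance gives about 1 in 20 groups. Fasted 2 was the highest of the fasted libraries in 5 of them: Phyh at 14775 normalized counts (others 12572 to 12804), Pxmp4 at 4856 (others 3903 to 4020.0), Mlycd at 2680.1 (others 1838 to 1921), Pex7 at 1877 (others 1668 to 1677) and Pex11a at 1312 (others 575 to 668). Fasted 2 was the lowest fasted library for Hao2, at 3635 (others 6529 to 6762). Among fed libraries, fed 3 was the lowest for Ech1 at 6083 (others 8839 to 9707) and for Pxmp4 at 1367 (others 1989 to 2220.0). Fed 5 was the lowest for Gnpat at 2452 (others 2666 to 2741) and for Dao at 7247 (others 8349 to 8579).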

How the results depend on the processing

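The counts were 20 higher and 4 lower genes with pseudocounts of 0.5 and 5, no filter, a mean of at least 50, TMM, upper-quartile factors, voom and edgeR, and 17 higher and 3 lower by limma without a trend. The count of lower genes was 8 with voom and quality weights, 7 with DESeq2 and 0 at an adjusted p under 0.01 (14 higher). It was 7 without fed 5 (19 higher) and 2 without fed 3 and fasted 1 (17 higher). It was 8 without fasted 2 and fed 5 (17 higher), a fit chosen after seeing the data. Over all genes tested, 793 were lower in the main test. In these settings, in the same order, 1378, 1148, 243, 1033, 486 and 834 of all genes were lower. The cause was not tested. With 1 library left out, 15 to 22 genes were higher and 3 to 7 lower, beside 457 to 926 higher and 404 to 1033 lower over all genes. Of the 24 called genes, 14 kept the call in all 23 alternatives, 18 with each library left out, and 0 reversed. Where a range is given below it is over the fits with libraries left out. Uncalled changes turned in sign for Acox3 (-0.024 without fed 5, -0.081 without fasted 2 and fed 5, range to 0.149), Phyh (-0.0167 with voom and quality weights, -0.0218 without fasted 2, -0.00889 without fed 5, -0.0641 without fasted 2 and fed 5, range to 0.0646), Agps (0.0390 without fasted 4, range from -0.298), Pex2 (0.0067 without fasted 4, range from -0.170), and Pipox (-0.00615, range to 0.0662) and Pex5 (-0.0120, range to 0.0932) without fasted 2 and fed 5. No paired analysis was possible because the labels give no numbers shared between the groups. Fold changes on the log2(value + 1) scale understate those of genes with few reads, such as Abcd2.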

Other observations

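The levels of the 46 genes were also ordered per kilobase of exon. In fasted kidneys Ehhadh (25704 normalized counts per kilobase), Cat (14750), Acaa1b (8358), Ephx2 (7592) and Ech1 (7348) were the highest, and in fed kidneys Cat (11527), Ehhadh (6856), Phyh (6819), Idh1 (5577) and Ephx2 (5046). Acaa1b was at rank 3 in fasted and rank 10 in fed kidneys, and Hao2 at rank 11 in fasted and rank 6 in fed kidneys. Abcd2 was the lowest in both groups, at 3.645 per kilobase in fasted and 2.304 in fed kidneys.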
